A study of Mus musculus with 6 samples.

Results

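Translation factors are the proteins that bring ribosomes to mRNAs and move them along the message. Of 14148 genes in all, 56 genes named as such factors were followed in aged mouse microglia with many or few lipid droplets. The members were all genes whose symbol starts with Eif (48 genes, eukaryotic initiation factors) or Eef (8 genes, eukaryotic elongation factors). The names take in some genes with other roles. Eef2k encodes a kinase, Eif4a3 an exon junction helicase, and the Eif4ebp genes and Eif4enif1 encode proteins that bind eIF4E. The 4 Eif2ak kinases were left out. This rule used names alone, but it was chosen with earlier results of these data known. Microglia, the resident macrophages of the brain, had been isolated from hippocampus of male C57BL/6 mice aged 18 months, and each sample pooled the tissue of 3 mice. Live CD11b+ cells with low CD45 were sorted by BODIPY, a dye for neutral lipid, into a lipid droplet-high fraction (LD-high, 3 libraries) and a lipid droplet-low fraction (LD-low, 3 libraries), with about 10000 cells per sample. Age, sex and strain were shared by both groups, no treatment is named in the labels, and the groups differ in the BODIPY gate. Nothing in the labels says that the pools held different mice, so p-values reflect sample-to-sample spread that may be technical. The LD-high libraries held 15895576 to 36894483 reads in genes and the LD-low libraries 23808102 to 38489448, and every member had at least 27 reads in every library.

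Initiation starts when eIF2 delivers the initiator tRNA to the small ribosomal subunit, with eIF1, eIF1A, eIF3 and eIF5, and eIF2B then recharges eIF2 for the next round. The cap-binding protein eIF4E, the scaffold eIF4G and the helicase eIF4A load the mRNA, and the 4E-binding proteins and 4E-T hold eIF4E back. During elongation eEF1A brings charged tRNAs, eEF2 moves the ribosome, and eIF5A helps it through stretches where peptide bonds form slowly. Growth signals act on this machinery through the kinase mTOR, and stress signals through phosphorylation of eIF2.

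Both eIF5A genes were higher in LD-high microglia, and the stretches printed here show how far their coding sequences differ, since reads from near-identical copies could be assigned to either gene. These stretches, from the transcripts of the mm9 annotation, run over coding bases 106 to 192 around the codon of the lysine that is turned into hypusine, the modified residue that eIF5A needs. Capitals mark the 13 of 87 bases at which the genes differ. The lysine codon, aag, stands at bases 43 to 45 of each stretch and is codon 50 of the coding sequence.
Eif5a2: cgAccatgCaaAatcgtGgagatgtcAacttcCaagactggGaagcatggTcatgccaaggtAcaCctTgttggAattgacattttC
Eif5a: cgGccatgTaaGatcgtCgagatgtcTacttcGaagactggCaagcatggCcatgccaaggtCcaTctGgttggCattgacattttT
Over the whole coding sequences, 462 bases in Eif5a2 and 465 in Eif5a, 72.7% of aligned bases were identical, and the longest identical run was 14 bases. For Eif1ax and Eif1a, the closest of the 8 paralog pairs aligned, these values were 85.5% and 28 bases.

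The changes were few and modest, and they fell on 5 genes. In LD-high libraries Eif5a, Eif5a2 and Eif4g2 rose, and Eif3a and Eif4enif1 fell. The 5 genes make 8.93% of the 56 members, all of which passed the filter on low values, against 3.36% of all 11624 genes tested (limma on log2(normalized count + 1), Benjamini-Hochberg adjusted p below 0.05 over all genes). The 3 that rose make 5.36% of the members, against 1.53% of all genes, and the 2 that fell make 3.57%, against 1.82%. For 14 members (25.0%) every library of one fraction lay above every library of the other, which is close to the 24.3% of all genes tested. LD-high was the higher in 12 of the 56 members, against 1474 of the 11624 genes tested (12.7%). It was the lower in 2 of the 56, against 1356 of the 11624 (11.7%). Members with LD-high above were thus more frequent than among all genes, and members with LD-high below were less frequent. Of the 56 log2 changes, 36 lay above 0 (64.3%, against 48.7% of all genes), with a median of 0.07. With all libraries scaled to equal totals, 31 lay above 0 and the median was 0.02. That scaling also lowered the median over all genes, from -0.006 to -0.048. The equal-totals counts given below share this shift. Fitted changes were under 10% in either direction for 36 members.

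**Figure D1:**
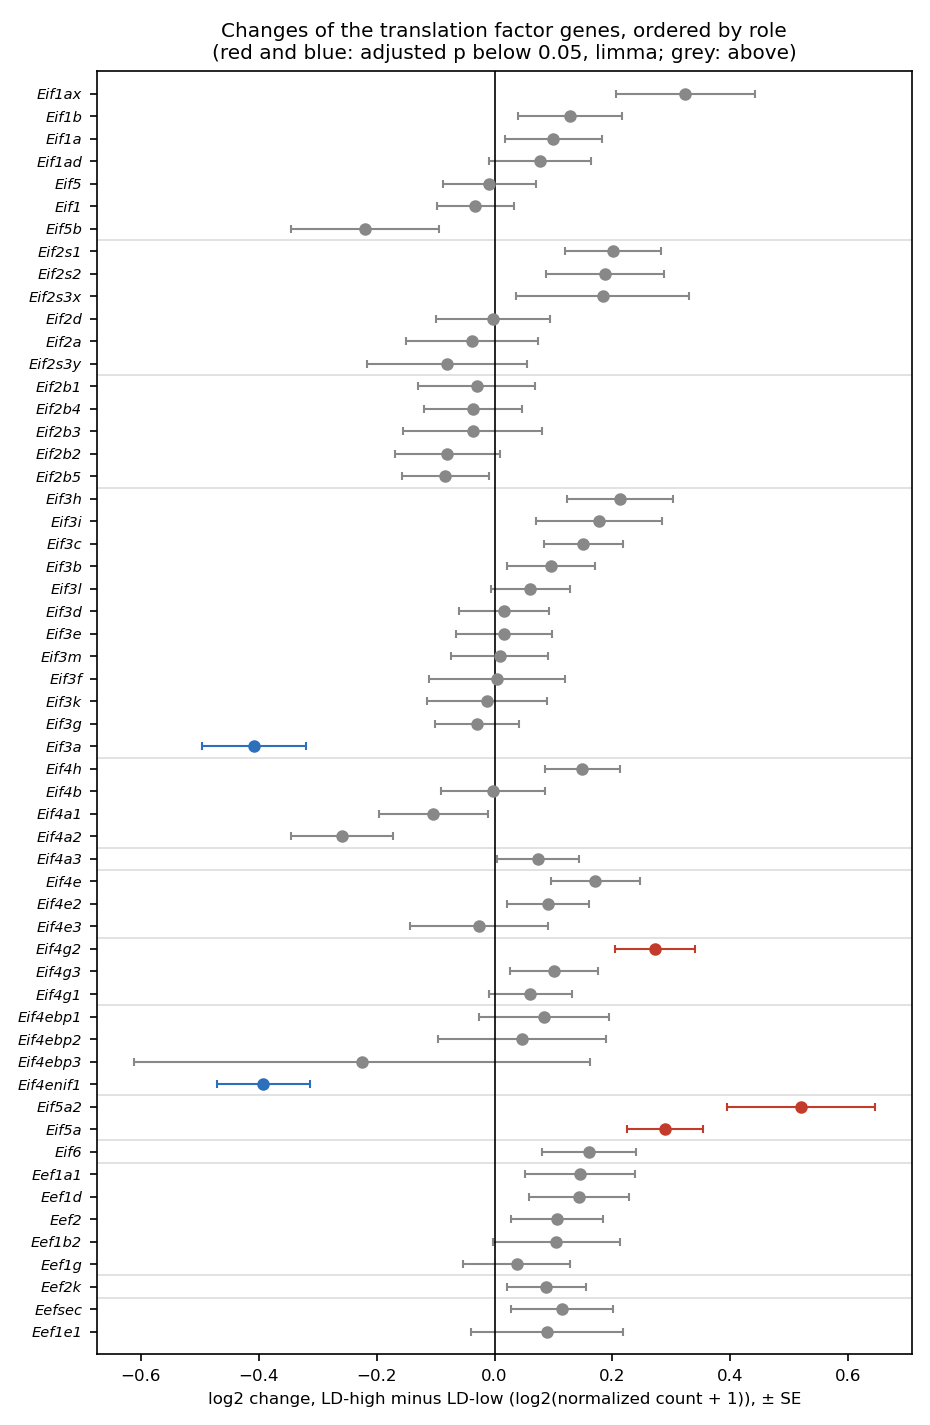
Log2 change (LD-high minus LD-low, x axis, on the log2(normalized count + 1) scale) with its SE for each of the 56 genes, grouped by role from start codon factors at the top to elongation factors at the bottom. Eif5a2 at 0.52 and Eif3a at -0.41 are the extremes, and only 5 genes are coloured as past the limma threshold.

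Eif5a and Eif5a2, the whole of the eIF5A group, rose in LD-high libraries. Eif5a (chromosome 11, 69730216 to 69735460, mm9), the form that most cells use, had 6196, 6129 and 5979 normalized counts in LD-high libraries (replicates 1, 2 and 3), against 5149, 5083 and 4762 in LD-low libraries. Every LD-high value lay above every LD-low value. The means were 6101 ± 111 in LD-high and 4998 ± 207 in LD-low (SD, n = 3 each). The log2 change was 0.29 ± 0.06 (SE), and its limma adjusted p was 0.0286. Eif5a2 (chromosome 3, 28680233 to 28697768, mm9) encodes a second form with a narrower distribution among tissues. It had 428, 475 and 471 normalized counts in LD-high libraries and 321, 286 and 353 in LD-low libraries, again without overlap. Its log2 change of 0.52 ± 0.13 (adjusted p 0.0372) was the largest rise among the members. Its exons overlap those of Gm17485 on the opposite strand, and the cDNA and library kits that the labels name do not mark strand. Eif5a2 held 0.0691 to 0.0787 reads per Eif5a read in LD-high libraries and 0.0562 to 0.0741 in LD-low libraries, ranges that overlap, so that an unequal rise was not shown (exact permutation test on the log2 ratio, two-sided p = 0.2). The hypusination enzymes, a list of 2 genes, did not pass: for Dhps the log2 change was -0.01 ± 0.12 (adjusted p 0.976) and for Dohh 0.07 ± 0.09 (adjusted p 0.706).

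Eif4g2, also called DAP5, rose while the 2 classical eIF4G scaffolds did not pass. Its product resembles the eIF4G scaffold but lacks the part that binds eIF4E, and it supports translation that does not depend on the cap-binding protein. Eif4g2 (chromosome 7, 118211499 to 118226544, mm9) had 32528, 31132 and 31120 normalized counts in LD-high libraries, against 27519, 26320 and 24719 in LD-low libraries. The groups did not overlap, and the log2 change was 0.27 ± 0.07 (adjusted p 0.0428). Eif4g1, the main scaffold, had 4415, 3873 and 3937 normalized counts in LD-high and 3976, 3898 and 3831 in LD-low libraries, a log2 change of 0.06 ± 0.07 (adjusted p 0.685). Eif4g3 had a log2 change of 0.10 ± 0.07. There were 7.37, 8.04 and 7.90 Eif4g2 reads per Eif4g1 read in LD-high libraries, against 6.92, 6.75 and 6.45 in LD-low libraries. The difference of the log2 ratios, 0.21, is free of library scaling, and its exact two-sided permutation p of 0.1 is the smallest that 3 against 3 libraries can give (0.45 after Benjamini-Hochberg adjustment over 9 paralog pairs). Eif1b over Eif1 gave the same p values in this test, with a difference of 0.16 and no overlap, though neither of those genes was called.

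Eif3a, the largest subunit and a scaffold of the eIF3 complex, fell in LD-high libraries, and it was the only one of 12 eIF3 genes past the test, also with TMM factors, equal totals and quantile normalization, which called 3.30%, 3.02% and 2.17% of all genes. Eif3a (chromosome 19, 60837019 to 60866596, mm9) had 2046, 2175 and 2266 normalized counts in LD-high libraries, against 2589, 2780 and 3274 in LD-low libraries. LD-low replicate 3 was the highest, and the groups did not overlap. The log2 change was -0.41 ± 0.09 (adjusted p 0.0250). The other 11 subunit genes had log2 changes between -0.03 (Eif3g) and 0.21 (Eif3h), 9 of them above 0, and 5 above 0 with equal totals. Eif3h had 1137, 1159 and 1018 normalized counts in LD-high libraries, against 1002, 952 and 904 in LD-low libraries (log2 change 0.21 ± 0.09, adjusted p 0.206). Eif3c, a core subunit, had a log2 change of 0.15 ± 0.07 (adjusted p 0.226), with no overlap between the groups. Set against the geometric mean of the other 11 subunit genes in the same library, Eif3a stood at 1.25, 1.39 and 1.47 in LD-high libraries and at 1.69, 1.80 and 2.23 in LD-low libraries. These ratios of normalized counts are not corrected for transcript length and are used only between libraries.

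**Figure D2:**
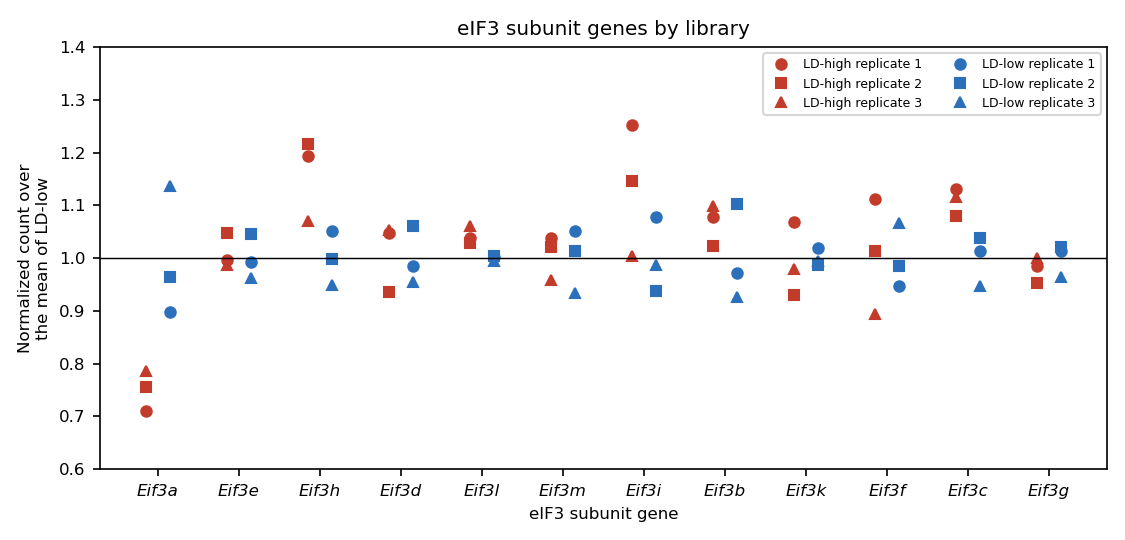
Normalized count of each eIF3 subunit gene in each library, divided by that gene's LD-low mean (y axis, shown from 0.6 to 1.4). The 3 LD-high values of Eif3a lie below its 3 LD-low values, while the libraries of most other subunits intermix.

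Eif4enif1 fell as well, alone in its group of eIF4E-binding proteins. It encodes 4E-T, which carries eIF4E into the nucleus and gathers it, with repressed mRNAs, in cytoplasmic processing bodies. Eif4enif1 (chromosome 11, 3102395 to 3144591, mm9) had 1313, 1375 and 1277 normalized counts in LD-high libraries, against 1710, 1835 and 1662 in LD-low libraries. The groups did not overlap, the log2 change was -0.39 ± 0.08, and its adjusted p of 0.0183 was the lowest of the 56 members. Of the 4E-binding proteins, which block eIF4E until mTOR phosphorylates them, Eif4ebp1 had 574, 619 and 573 normalized counts in LD-high and 559, 613 and 499 in LD-low libraries (log2 change 0.08 ± 0.11, adjusted p 0.726). Eif4ebp2 had a log2 change of 0.05 ± 0.14 (adjusted p 0.899). Eif4ebp3, the member with the fewest reads and an exon overlap with Ankhd1 on the same strand, had one of -0.23 ± 0.39. Eif4e, the cap-binding protein itself, had 2765, 2995 and 2742 normalized counts in LD-high libraries, against 2447, 2712 and 2397 in LD-low libraries. Its groups did not overlap, but its log2 change of 0.17 ± 0.08 did not pass (adjusted p 0.221).

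**Figure D3:**
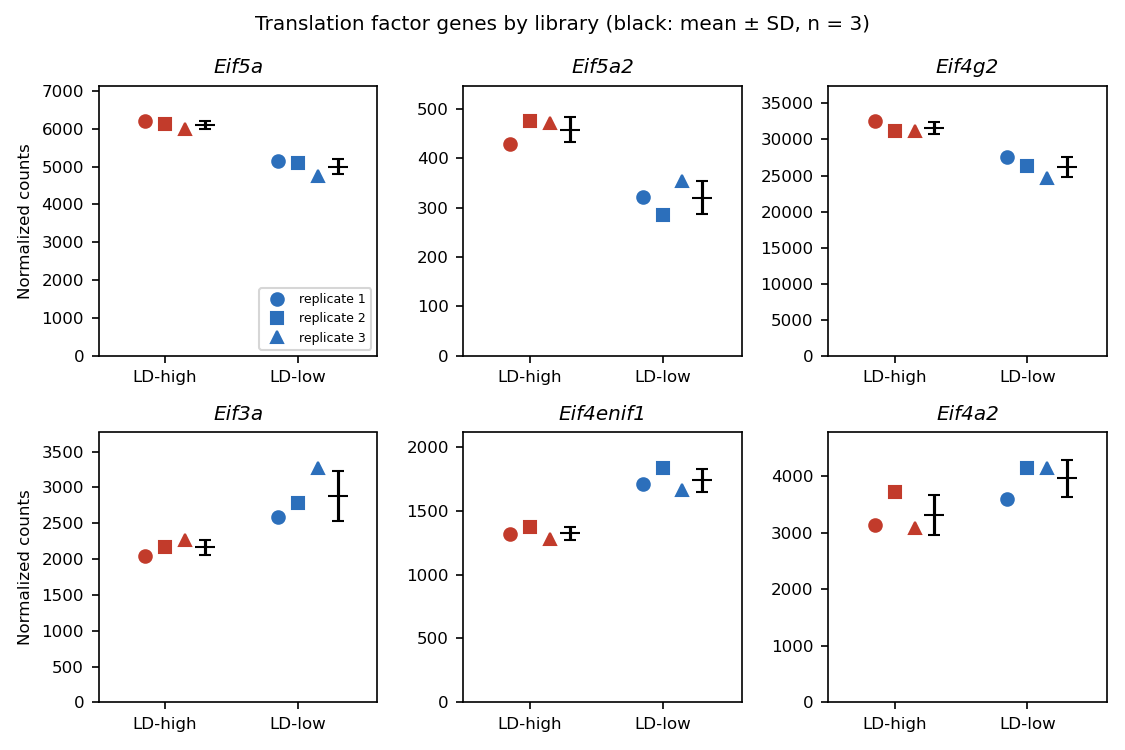
Normalized counts by library (points, with the replicate number by shape) and mean ± SD (black, n = 3) for the 5 genes past the threshold and Eif4a2, with LD-high on the left of each panel. LD-high and LD-low values do not overlap in 5 panels, and overlap for Eif4a2, where LD-high replicate 2 lies above LD-low replicate 1.

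In limma these 5 calls lay near the threshold, and each was lost in at least 3 of the 6 fits that left out 1 library. Eif4enif1 alone was called when LD-high replicate 1 was left out (1.99% of all genes called) and when LD-high replicate 2 was (1.73%), and all but Eif5a2 without LD-low replicate 1 (3.62%). No member was called without LD-high replicate 3 (0.774%), LD-low replicate 2 (0.705%) or LD-low replicate 3 (0.447%). At an unadjusted p below 0.05 these 3 fits had 14, 14 and 6 members. The log2 changes kept their sign in these 6 fits: they ran from 0.25 to 0.31 for Eif5a, 0.44 to 0.59 for Eif5a2, 0.23 to 0.31 for Eif4g2, -0.48 to -0.31 for Eif3a and -0.42 to -0.35 for Eif4enif1, and the highest adjusted p values were 0.119, 0.157, 0.157, 0.118 and 0.0899. Count tests on the recovered reads, edgeR's quasi-likelihood test and DESeq2, called the same 5 members and no other (edgeR adjusted p 0.0191 to 0.0452, with 3.24% of all genes called, and DESeq2 adjusted p 0.000813 to 0.0147, with 5.85%). Without a mean-variance trend limma called none of the 56 and 0.129% of all genes (adjusted p 0.161 to 0.201 for the 5, and 7 members at an unadjusted p below 0.05). Eif4g2 missed the threshold with no filter on low values (adjusted p 0.0528, 2.77% of all genes called) and after a correction for GC content (0.0718, 2.64%), and Eif5a2 missed it with equal totals (0.0728).

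Markers of some other cell types differed between the groups. The 7 neutrophil markers with data summed to 0 normalized counts in each LD-high library (a count of 0 allows up to 3 reads per gene and library), against 1222, 1589 and 4563 in LD-low replicates 1, 2 and 3, and all 6 tested were lower in LD-high. Choroid plexus epithelium markers (8 genes) summed to 1719 to 5592 in LD-high and 366 to 1795 in LD-low libraries, and oligodendrocyte and myelin markers (6 genes) to 2083 to 2262 in LD-high and 1702 to 1925 in LD-low libraries. On the choroid plexus list limma called 3 of 5 tested genes higher in LD-high (Ttr, Kl and Enpp2), edgeR 3 and DESeq2 2 (Kl and Kcnj13), and on the myelin list limma and edgeR called 0 of 4 tested and DESeq2 called 1, Mag. Neuron markers summed to 84.2 to 100.8 in LD-high and 42.1 to 68.7 in LD-low libraries, and astrocyte markers to 7949 to 8855 in LD-high and 6466 to 7795 in LD-low libraries, so that every LD-high sum lay above every LD-low sum on both lists. The astrocyte sum was almost all Slc1a3 (7892 to 8813 in LD-high and 6419 to 7742 in LD-low libraries). Aldoc overlapped between the groups, and Aqp4, too low to be tested, was 0 in every LD-high library. Border-associated macrophage markers summed to 167 to 416 in LD-high and 254 to 557 in LD-low libraries, and all 7 tested had log2 changes below 0, with a median of -0.63. No tested gene of these 3 lists passed in limma, edgeR or DESeq2, with 1, 1 and 2 at an unadjusted limma p below 0.05 on the neuron, astrocyte and macrophage lists. Endothelium markers summed to 1668 to 2106 in LD-high and 1387 to 1811 in LD-low libraries, and of 4 tested limma called 0, with 2 at an unadjusted p below 0.05, and edgeR and DESeq2 each called 1 (in DESeq2 Flt1, lower in LD-high). The other 3 tested endothelium genes had log2 changes above 0, and for 2, Kdr and Cdh5, every LD-high value lay above every LD-low value. Kdr, the other gene at an unadjusted p below 0.05, had 366 to 445 normalized counts in LD-high and 298 to 322 in LD-low libraries (limma adjusted p 0.110). Pecam1 made most of the endothelium sum (1268 to 1625 in LD-high and 1044 to 1460 in LD-low libraries). Microglial markers (10 genes) summed to 1546510 to 1757550 in LD-high and 1577710 to 1842810 in LD-low libraries, and none of them passed in limma or edgeR (1 at an unadjusted p below 0.05, and 1, Cx3cr1, in DESeq2). LD-low replicate 3 had the highest neutrophil sum, the highest Eif3a and the lowest Eif5a and Eif4g2. Without it the log2 changes were -0.31 for Eif3a, 0.25 for Eif5a and 0.23 for Eif4g2. The part of these cells in the changes was not tested. In such bulk samples, fewer cells of a type and less RNA per cell cannot be told apart.

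The helicase group had no gene past the threshold in limma, edgeR or DESeq2, and 2 of its 4 at an unadjusted limma p below 0.05. Eif4a2, the member with the smallest p among those that did not pass, is a paralog of the main eIF4A helicase gene and had 3141, 3729 and 3080 normalized counts in LD-high libraries, against 3592, 4147 and 4152 in LD-low libraries. LD-high replicate 2 lay above LD-low replicate 1, and the log2 change of -0.26 ± 0.09 did not pass (adjusted p 0.112). Eif4a1 had a log2 change of -0.10 ± 0.09 (adjusted p 0.564), with 4733 to 5808 normalized counts in LD-high and 4937 to 6286 in LD-low libraries. Eif4a2 reads per Eif4a1 read ran from 0.588 to 0.664 in LD-high and from 0.623 to 0.840 in LD-low libraries (exact permutation p = 0.5). Eif4a2 exons overlap Rfc4 on the opposite strand and several small nucleolar RNAs. Eif4h, which stimulates eIF4A, had 6423 to 6917 normalized counts in LD-high libraries, all above the 5853 to 6129 of LD-low libraries, a log2 change of 0.15 ± 0.06 (adjusted p 0.212).

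None of the 18 genes for start codon recognition, eIF2 and eIF2B passed in limma, edgeR or DESeq2, and at an unadjusted limma p below 0.05 the 3 groups had 1, 1 and 0. Eif1ax, the X-linked eIF1A gene, had 494, 454 and 451 normalized counts in LD-high libraries, against 392, 386 and 340 in LD-low libraries. These groups did not overlap either, but the log2 change of 0.32 ± 0.12 missed the threshold (adjusted p 0.146). Eif2s1, the eIF2 subunit that stress kinases phosphorylate, had 1993, 2215 and 2247 normalized counts in LD-high and 1874, 2011 and 1733 in LD-low libraries (0.20 ± 0.08, adjusted p 0.188). All 5 eIF2B genes had log2 changes just below 0, from -0.08 (Eif2b5, the catalytic subunit, adjusted p 0.562) to -0.03, and after the GC correction 1 of them lay above 0. Leaving out 1 library also turned some positive, to at most 0.04 for Eif2b3, 0.013 for Eif2b1 and 0.0006 for Eif2b4. The eIF2 gamma subunit has an X and a Y copy in mice. The Y copy, Eif2s3y, had 906, 1258 and 1279 normalized counts in LD-high and 1007, 1222 and 1401 in LD-low libraries, and the X copy, Eif2s3x, had 324, 274 and 260 in LD-high and 262, 267 and 226 in LD-low libraries. Per kilobase of their longest transcripts, Eif2s3y stood at 625 in LD-high and 659 in LD-low libraries, and Eif2s3x at 78.5 and 69.0, so the Y copy was the higher in both groups on this scale. This pair was not among those aligned here, and reads assigned to the wrong copy were not checked for. Their log2 changes, -0.08 ± 0.14 and 0.18 ± 0.15, did not pass, and that of Eif2s3y turned positive without LD-high replicate 1 or without LD-low replicate 3 (0.08 and 0.03).

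The Eef genes, elongation factors and the kinase gene Eef2k among them, shifted little. All 8 Eef genes had log2 changes above 0, from 0.04 (Eef1g) to 0.14 (Eef1a1), with a median of 0.11. No Eef gene passed in limma (0 also at an unadjusted p below 0.05), edgeR or DESeq2. With equal totals 7 lay above 0, and without LD-high replicate 1 the log2 change of Eef1g was -0.03. Eef1a1, which encodes the tRNA carrier eEF1A, had 19344, 16970 and 14362 normalized counts in LD-high and 16456, 14546 and 14574 in LD-low libraries, so the groups overlapped (0.14 ± 0.09, adjusted p 0.410). Its log2 change was 0.04 without LD-high replicate 1 and 0.03 with quantile normalization. For Eef2, the translocase, the log2 change was 0.11 ± 0.08 (adjusted p 0.478), and for Eef2k, whose product phosphorylates and slows eEF2, it was 0.09 ± 0.07 (adjusted p 0.50). Eif6, which keeps the large ribosomal subunit from joining too early, had 2089, 1995 and 2137 normalized counts in LD-high libraries, against 1936, 1948 and 1691 in LD-low libraries (0.16 ± 0.08, adjusted p 0.281).

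The members differ widely in level, and the order was nearly shared by both groups. To compare genes, levels were set per kilobase of the longest annotated transcript. Whether these cells express that transcript was not checked, so the order holds for these lengths only. On this scale Eef1a1 was highest with a mean of 9416 normalized counts per kilobase in LD-high and 8468 in LD-low libraries. Eif1 (4855 and 4962), Eif5a (4246 and 3478), Eif4g2 (4132 and 3425) and Eif4a1 (2798 and 3012) followed, so that 2 of the 3 genes that rose are among the 5 highest. Eif5a2 was near the other end, at 91.7 in LD-high and 64.1 in LD-low libraries, rank 54 of 56. Eif1 itself had a log2 change of -0.03 ± 0.07 (adjusted p 0.833). Together the members held 0.628% to 0.647% of all reads in genes in LD-high and 0.599% to 0.626% in LD-low libraries.

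**Figure D4:**
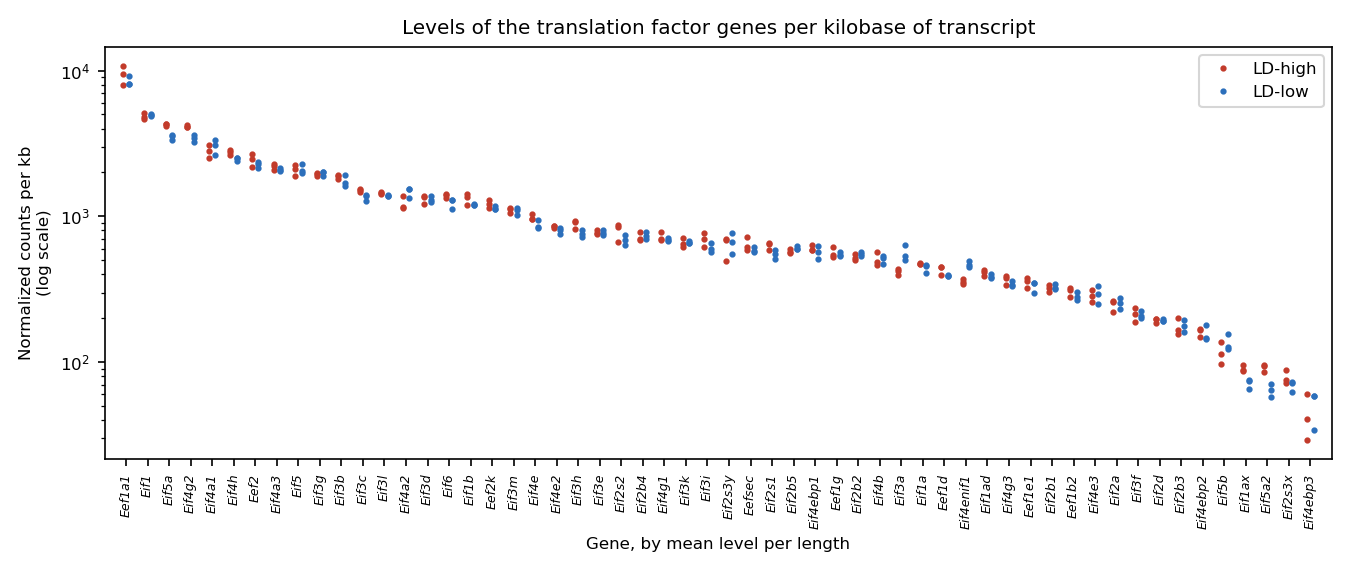
Normalized counts per kilobase of the longest transcript (log axis) in each library for the 56 genes, ordered by mean level. Red LD-high and blue LD-low points lie close together along the whole range from Eef1a1 to Eif4ebp3, with Eif5a, Eif4g2, Eif1ax and Eif5a2 showing LD-high above LD-low.

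Many translation factor mRNAs begin with a run of pyrimidines, the TOP motif, through which mTOR controls their translation, a step that RNA levels do not show. Of the 9 members listed as TOP mRNAs (Eef1a1, Eef1b2, Eef1d, Eef1g, Eef2, Eif3e, Eif3f, Eif3h and Eif4b), none passed in limma (1 at an unadjusted p below 0.05), edgeR or DESeq2, 8 had log2 changes above 0 and the median was 0.10; with equal totals 5 lay above 0. RefSeq start regions (GRCm38.p6) were matched for 44 of the 56 members. A C followed by at least 4 bases that are each C or T, beginning within 5 bases of the first listed start on the gene's strand, was found for 10 of the 44 (22.7%), against 20.1% of 8856 tested genes with such a sequence. Start regions were matched for 5 of the 9 listed TOP mRNAs, and 2 of those 5, Eif3f and Eef1a1, had such a tract near the listed start. The listed starts were not checked against the transcripts of these cells. A marked tract, that of Eef1a1 included, is therefore not shown to be the TOP motif of the mRNA. The windows run from 10 bases before the start to 20 bases from it, and capitals mark the tract. They show the longest tract found, in Eif3f, the one in the most abundant member, and those of the X and Y copies of the eIF2 gamma gene.
Eif3f, chr7:108934405-108934434, plus strand: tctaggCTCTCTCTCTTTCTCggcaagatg
Eef1a1, chr9:78481705-78481734, minus strand: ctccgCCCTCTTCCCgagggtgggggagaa
Eif2s3x, chrX:94212632-94212661, minus strand: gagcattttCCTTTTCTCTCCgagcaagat
Eif2s3y, chrY:1010585-1010614, plus strand: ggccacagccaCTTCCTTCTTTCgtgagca

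Upstream sequences are shown for Eif5a2 and Eif3a, the called genes with 1 listed start, each over the 100 bases before it. Capitals mark letters found by a search of both strands. The GC box was searched for as GGGCGG, a site of Sp1 and related factors, and the core site of the ETS factors as CCGGAAG. The CCAAT box was searched for by those letters, the E-box as CACGTG, and the NRF1 motif in its palindromic form. The core of the amino acid response element, which serves Atf4, was searched for as TGATGNAA, and the cAMP response element as TGACGTCA. No marked letters of different motifs overlap in these 2 windows.
Eif5a2, chr3:28781177-28781276, plus strand: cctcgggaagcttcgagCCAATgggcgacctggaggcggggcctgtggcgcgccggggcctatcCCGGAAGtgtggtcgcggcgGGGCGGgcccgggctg
Eif3a, chr19:60790694-60790793, minus strand: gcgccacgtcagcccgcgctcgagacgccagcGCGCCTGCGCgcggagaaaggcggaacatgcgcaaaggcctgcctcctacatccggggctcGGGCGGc
Over the 300 bases around the first listed start, the GC box was in 33 of 44 members (75.0%), against 65.3% of tested genes, the ETS core in 14 (31.8%, against 19.5%) and the E-box in 10 (22.7%, against 10.5%). The CCAAT box was in 12 (27.3%, against 39.1%), NRF1 in 6 (13.6%, against 11.4%), and the other 2 motifs in 1 member each. A match describes letters, not a bound site.

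Signals that act on these factors were read from lists of other genes. The 6 eIF2 kinase and phosphatase subunit genes had none past the test in limma (0 also at an unadjusted p below 0.05), edgeR or DESeq2, with log2 changes from -0.12 (Eif2ak2) to 0.10 (Eif2ak3). Of 14 tested integrated stress response targets, 1 passed in limma, edgeR and DESeq2, and the median log2 change was -0.09. Psat1, an enzyme of serine synthesis, rose and had 1288, 1025 and 868 normalized counts in LD-high libraries, against 801, 669 and 605 in LD-low libraries (0.61 ± 0.14, adjusted p 0.0287), while Atf4, the central factor of the response, stood at -0.13 ± 0.08 (adjusted p 0.403). Of 16 genes of the mTORC1 pathway, limma and edgeR called 1, Rps6kb1, which fell, and 5 had an unadjusted limma p below 0.05. The median log2 change was 0.00. Rps6kb1, which encodes the S6 kinase that mTORC1 switches on, had 1003, 1061 and 1040 normalized counts in LD-high libraries, against 1262, 1410 and 1411 in LD-low libraries (-0.39 ± 0.08, adjusted p 0.0250). Rps6kb2, the gene of a second S6 kinase, had 393, 534 and 549 normalized counts in LD-high libraries, against 549, 764 and 757 in LD-low libraries, and the highest LD-high value lay just under the lowest LD-low value. Its log2 change of -0.49 ± 0.15 missed the limma threshold (adjusted p 0.0891), and DESeq2 but not edgeR called it. The rest of the 5 at an unadjusted p below 0.05 went both ways. Rheb (0.23 ± 0.08, adjusted p 0.132) and Mknk2 (0.15 ± 0.07, adjusted p 0.251) lay above 0, and Tsc1 (-0.27 ± 0.12, adjusted p 0.221) lay below. The limma calls of Psat1 and Rps6kb1 were kept in 2 of the 6 fits without 1 library: that of Psat1 without LD-high replicate 3 and without LD-low replicate 1, and that of Rps6kb1 without LD-high replicate 2 and without LD-low replicate 1. Their highest adjusted p values were 0.141 and 0.113, both without LD-low replicate 3.

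The remaining steps of translation had no gene past the limma test. That held for 5 poly(A)-binding protein genes and partners (median 0.10; Paip2, an inhibitor of the poly(A)-binding protein, had the smallest p with 0.22 ± 0.07 and an adjusted p of 0.0798), 6 tested termination and recycling genes (median 0.08), 10 mitochondrial translation factors (median -0.09; smallest p for Guf1, -0.29 ± 0.12, adjusted p 0.192) and 22 cytosolic tRNA synthetase genes (median 0.02; smallest p for Dars, 0.18 ± 0.07, adjusted p 0.163). At an unadjusted p below 0.05 these 4 lists had 1, 1, 2 and 4 genes, edgeR called none of them and DESeq2 called 1, Paip2. At that unadjusted p the members had 12 of 56 (21.4%), against 19.8% of all genes tested.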

How the data were processed

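Read counts per gene were deposited as normalized signal, that is, counts divided by 1 size factor per library. Reads had been checked with FastQC 0.11.4, mapped to mm9 with STAR 2.5.1b and analysed with DESeq2, per the submitters' processing notes. Not given in the sources used here are the annotation, the counter, the strand setting and any filter on genes. All values (100%) were whole multiples of 1 step per library within 0.01 reads, which recovered 15895576 to 38489448 reads per library. Intervals and floors (3 reads) cover counting error only, since amplified reads are not independent molecules.

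Genes with at least 10 normalized counts in at least 3 libraries were tested (11624) with limma 3.58.1 in R 4.3.3, with a mean-variance trend, on log2(value + 1), 2-sided, with Benjamini-Hochberg adjustment at 0.05. On this scale folds of low genes are understated. edgeR 4.0.16 and DESeq2 1.42.0 were run on the recovered reads as alternatives and called 377 and 715 genes. Other alternatives were the pseudocount, the filter, TMM factors, equal totals, quantile normalization, no trend, length and GC corrections, a replicate block and each library left out. On simulated data of 11526 genes, a log2 change of 0.5 was called for 58% and one of 1 for 95% of the genes given it, and 7.83% of calls were false. Lengths and coordinates are those of GENCODE vM1 (mm9) and start regions those of RefSeq (GRCm38.p6). The members and lists were chosen with earlier results of these data known. Members were named if past the threshold, among the 12 smallest p, the 3 largest rises or falls, the 5 highest per length, or on a list of 18 always given, of which Eef1a2 was not analysed here. Eif3g, Eef1g, Eif4g3, Eif4ebp3, Eif2b1, Eif2b3, Eif2b4, Atf4, Rps6kb2, Rheb, Mknk2, Tsc1 and the markers were named after their values were seen.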

Additional observations from a re-analysis of the deposited data

How the results depend on the processing

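The number of members called was 0 to 4 when 1 library was left out (0 to 2 higher and 0 to 2 lower) and 0 without the mean-variance trend (0 higher, 0 lower). It stayed between 4 and 6 in the other alternatives. Over all genes, leaving out 1 library gave 52 to 421 calls (17 to 212 higher, 35 to 209 lower). The total was 252 with quantile normalization (108 higher), 15 without the trend (1 higher, 14 lower) and 715 with DESeq2 (382 higher, 333 lower), against 390 (178 higher, 212 lower). Equal totals gave 118 higher and the GC correction 141 lower. Without 1 library the log2 changes of 18 members, none of them called, turned sign. Among these Eif1 ran from -0.071 to 0.0022, Eif2s3y from -0.21 to 0.081, Eif4ebp2 from -0.0097 to 0.15, Eif4ebp3 from -0.49 to 0.024 and Eef1g from -0.033 to 0.088. The causes were not tested. Of the paralog differences (log2 ratio), Eif4g3/Eif4g1 ran from -0.010 to 0.075 and Eif4ebp2/Eif4ebp1 from -0.16 to 0.15, and that of Eif4a2/Eif4a1 from -0.24 to -0.025.

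With the replicate number as a block, limma called 6 of 56 members (3 higher, 3 lower) and 1090 of 11624 genes tested (560 higher, 530 lower). Without the block it called 5 of 56 members and 390 of 11624 genes, so the block raised the calls over all genes far more than those of the members. The added member was Eif4a2 (adjusted p 0.0213). Same-numbered libraries deviated together with r = 0.161, 0.132 and 0.0641 across genes, and each library correlated best with its own number, which is a hint from the data and not the design.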
